A study of Mus musculus with 2 samples.

Results

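Myeloid cells of a tumor release pro- and anti-inflammatory cytokines, and 10 genes of such cytokines (Tnf, Il6, Il12b, Il23a, Il27, Ebi3, Il15, Il10, Tgfb1 and Inhba) were followed through the CD45+ cells of B16-F10 tumors. They were taken by gene symbol from the 31253 genes of the count matrices, and all 10 were detected. For each gene the marker-gated cell type that carried its transcripts was identified, and the level in that type was compared between tumors of Irg1+/+ and Irg1-/- mice. Irg1, listed in the matrices as Acod1, encodes the enzyme of activated macrophages that makes itaconate.

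The study pooled tumor pieces of 100 mm3 from 3 mice per genotype, 10 days after 200000 B16-F10 melanoma cells were injected under the skin of the right flank of female mice aged 8 to 10 weeks. The knockout was carried in every cell of the animal, came from the Jackson Laboratory and had been backcrossed to C57BL/6J, and the Irg1+/+ mice served as controls. Red blood cells were lysed, CD45+ cells were sorted, and transcripts were captured on the BD Rhapsody platform and counted at their 3′ ends as unique molecular identifiers (UMIs). With 1 library of 3 pooled mice per genotype there was no replicate, so no test was made, and each interval below is a 95% interval that covers counting error only.

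The Irg1+/+ library held 6408 cell barcodes and the Irg1-/- library 5896, against 6000 sorted cells stated per sample. After cells with 10% or more mitochondrial UMIs were left out, 6284 cells with 42105693 non-mitochondrial UMIs and 5794 cells with 35307041 UMIs remained, with medians of 4528 and 4594.5 UMIs per cell. One UMI was therefore worth 0.0237 and 0.0283 CPM, the UMIs of a gene per 1000000 UMIs of the cells counted. The libraries shared 36 barcodes, of which 2 fell into the same gated type in both. Ptprc, which encodes CD45, had a UMI in 88.0% and 91.5% of the cells.

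The targeted gene was measured first. Acod1 had 3696 UMIs in the Irg1+/+ library (87.8 CPM, interval 85.0 to 90.7) and 3805 UMIs in the other (108 CPM, interval 104 to 111). The knockout library therefore did not show fewer Acod1 transcripts, and its counts do not verify its label. The sources used here do not give which part of the gene is deleted, and a 3′ tag outside that part checks nothing. In both libraries Acod1 was highest in neutrophils, at 1621 and 1511 CPM, and its level in hypoxic Vegfa macrophages was 207 and 199 CPM. For this reason it is called the library labelled Irg1-/- throughout.

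Tnf and Il6 encode the acute inflammatory cytokines of macrophages and granulocytes, transcribed on demand through NF-κB and short-lived as messenger RNA. Il12b encodes the subunit shared by interleukin-12 and interleukin-23, which pairs with the product of Il12a or Il23a. Il27 and Ebi3 encode the subunits of interleukin-27, and Il15 supports NK cells and memory CD8 T cells and is shown to them on its own receptor chain, Il15ra. Il10 and Tgfb1 restrain inflammation, and Inhba encodes the subunit of activin A, a relative of TGF-β that is made by activated macrophages. Dendritic cells that have matured in a tumor are a known source of interleukin-12.

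All 10 genes had the same identifiers in the matrices and in the GRCm38 annotation, where each is a protein-coding gene. Tnf lies on chromosome 17 at 35199381 to 35202007, Il6 on chromosome 5 at 30013114 to 30019981 and Il12b on chromosome 11 at 44400063 to 44414033. Il23a lies on chromosome 10 at 128296139 to 128298752, Il27 on chromosome 7 at 126589010 to 126594941, Ebi3 on chromosome 17 at 55952640 to 55957022 and Il15 on chromosome 8 at 82331632 to 82403222. Il10 lies on chromosome 1 at 131019845 to 131024974, Tgfb1 on chromosome 7 at 25687002 to 25705077 and Inhba on chromosome 13 at 16011851 to 16031621. Tnf, Il23a, Il15 and Il27 are on the minus strand.

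Tnf, Inhba and Il6 had the most similar profiles over cell types among the 10 genes (below), and the 120 bases before their transcription starts are shown for that reason, read 5′ to 3′ on the strand of the gene from RefSeq promoters of GRCm38.p6. Il12b, whose profile was unlike theirs, is shown for contrast. Capitals mark matches to TATAAA or to the NF-κB-type letters GGG, any 5 bases and CC (called the GGG-CC motif here). TGANTCA, a motif of the AP-1 kind, and GAAA, any 2 bases and GAAA, a motif of the IRF kind, were also searched, all on both strands. Overlapping matches run together.
Tnf, chr17:35202008-35202127, minus strand: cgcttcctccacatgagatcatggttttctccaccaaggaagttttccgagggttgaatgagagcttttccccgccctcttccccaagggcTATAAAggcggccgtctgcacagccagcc
Inhba, chr13:16011731-16011850, plus strand: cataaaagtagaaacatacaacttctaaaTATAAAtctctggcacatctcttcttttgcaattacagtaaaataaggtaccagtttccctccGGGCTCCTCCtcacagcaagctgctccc
Il6, chr5:30012994-30013113, plus strand: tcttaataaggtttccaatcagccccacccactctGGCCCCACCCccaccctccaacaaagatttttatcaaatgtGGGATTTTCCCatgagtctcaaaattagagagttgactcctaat
Il12b, chr11:44399943-44400062, plus strand: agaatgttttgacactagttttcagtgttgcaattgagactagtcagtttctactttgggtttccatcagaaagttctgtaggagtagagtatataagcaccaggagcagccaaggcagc
Tnf held TATAAA 29 to 24 bases before its start and no GGG-CC motif in this window. Inhba held TATAAA 91 to 86 bases and the GGG-CC motif 28 to 19 bases before its start. Il6 held the GGG-CC motif from base 85 to base 76 and as an overlapping pair from base 44 to base 34. None of the searched letters occurred in the Il12b window. Of 32851 promoters of the same length, 30.9% held the GGG-CC motif, 6.34% TATAAA, 3.41% TGANTCA and 1.22% the IRF-type motif, so such matches are descriptions of sequence and not of binding. Of the 10 genes, 6 had an entry in the promoter table.

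Cells were assigned to types by marker genes that included none of the 10 cytokines, and a type name below means that the cells resembled that type by those markers. Of 12078 cells, 9947 (82.4%) were gated, and 16 types with at least 50 cells in each library were ranked. The monocyte gate held 570 and 734 cells in the Irg1+/+ library and the library labelled Irg1-/-, the macrophage gate 664 and 665, the hypoxic Vegfa macrophage gate (Vegfa, Mmp12, Spp1 and related genes) 661 and 306, and the neutrophil gate 97 and 224. There were 420 and 357 mature dendritic cells (mature DCs), 340 and 140 regulatory T cells (Tregs) and 401 and 743 NK cells. Of the 3989 monocytes and macrophages, 401 had a second class of the group within the gating margin. T, NK and B cells, 1708 and 1507 cells with medians of 3579 and 2870 UMIs, served as the comparison group for free RNA of the myeloid genes, except for Il10 and Tgfb1, which T cells also make.

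**Figure D1:**
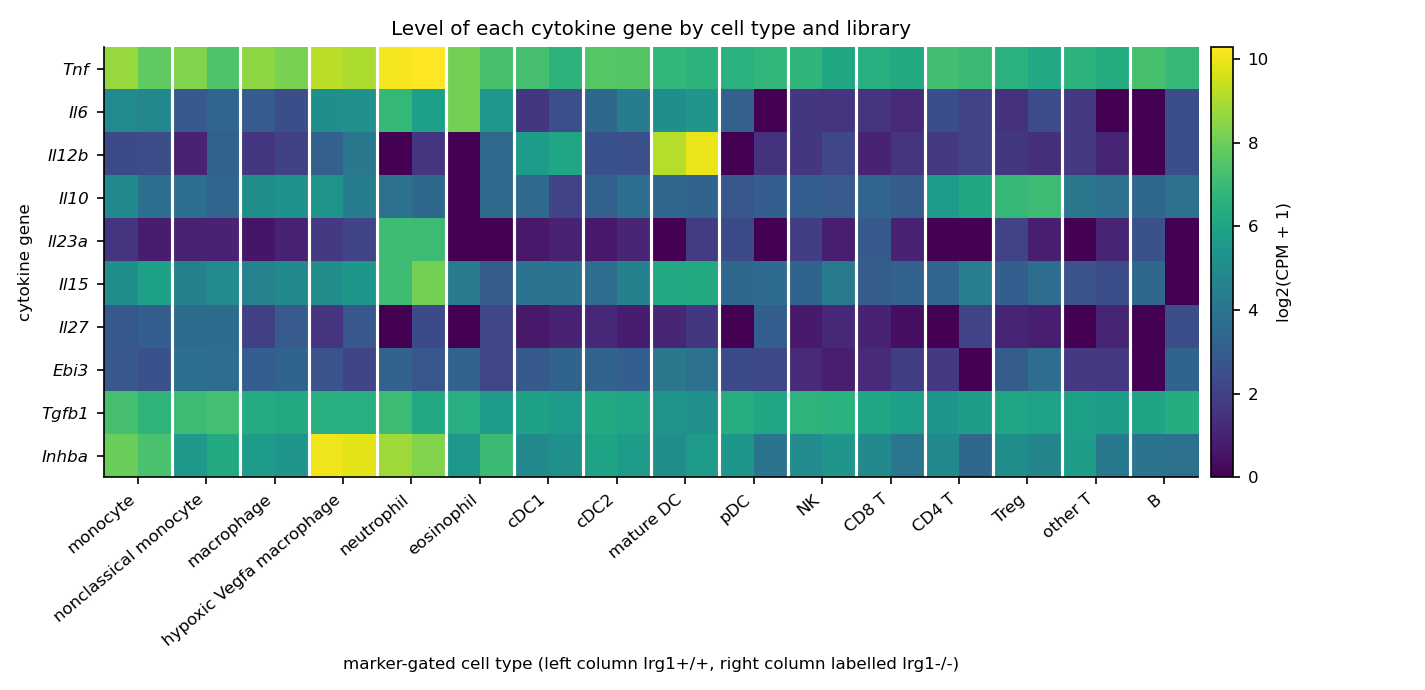
Levels of the 10 cytokine genes as log2(CPM + 1) by color, in the 16 gated types (columns) and both libraries. Il12b stood out in mature DCs (573 and 1024 CPM), Inhba in hypoxic Vegfa macrophages (1034 and 931 CPM) and Tnf in neutrophils (1129 and 1253 CPM).

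Tnf, the acute-phase cytokine of the group, was carried by neutrophils and by the monocyte and macrophage classes. Its level was highest in neutrophils, with 257 UMIs (1129 CPM, interval 995 to 1276) among Irg1+/+ cells and 631 UMIs (1253 CPM, interval 1157 to 1354) in the other library. Hypoxic Vegfa macrophages came second with 604 and 513 CPM. These first 2 ranks were separated by more than their counting intervals in both libraries. The next ranks changed places: monocytes (411 CPM) lay above macrophages (367 CPM) in the Irg1+/+ library and below them (220 against 295 CPM) in the other, each pair again without overlap of the intervals. Because neutrophils were few and shallow, with medians of 1653 and 1865 UMIs per cell, they held 2.23% and 8.34% of all Tnf UMIs, whereas hypoxic Vegfa macrophages held 26.4% and 13.8% and macrophages 25.9% and 26.9%. Of hypoxic Vegfa macrophages, 75.3% and 60.1% had a Tnf UMI.

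T, NK and B cells had 96.8 and 77.8 CPM of Tnf, and 34.8% and 25.5% of them had a UMI. At 2000 UMIs per cell these shares were 16.3% and 12.7%, against 42.0% and 28.0% in monocytes. Activated lymphocytes also make TNF, and how much of this signal was free RNA was not tested.

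Tnf was lower in monocytes of the library labelled Irg1-/-. Monocytes of the Irg1+/+ library had 1255 UMIs (411 CPM, interval 389 to 435), and those of the library labelled Irg1-/- had 914 UMIs in more cells (220 CPM, interval 206 to 235), a log2 ratio of Irg1-/- over Irg1+/+ of -0.90 (-1.02 to -0.78). The share of monocytes with a Tnf UMI was 61.1% and 49.3%. High-Tnf monocytes with over 10 UMIs numbered 24 of 570 (4.21%) and 14 of 734 (1.91%). Nonclassical monocytes, which patrol vessel walls, had a log2 ratio of -0.89 (-1.17 to -0.62) from 327 and 176 CPM. The gap was smaller in macrophages (-0.31, -0.40 to -0.23) and in hypoxic Vegfa macrophages (-0.24, -0.34 to -0.13). Lower values were found in other types too: the ratio was -0.86 in eosinophils (32 and 43 UMIs), -0.61 in NK cells (154 and 172 UMIs) and -0.59 in conventional type 1 DCs (151 and 99.9 CPM). In all T, NK and B cells it was -0.31 (-0.46 to -0.17), as in macrophages, and the part of free RNA was not tested. In neutrophils the ratio was 0.15 (-0.06 to 0.36), whose interval includes 0. With cell types taken from clusters in place of gates, the log2 ratio in monocytes was -0.45, and with at most 3 Tnf UMIs counted per cell it was -0.58, both short of the 1.5-fold used below. The macrophage value moved as well, to -0.87 with clusters and to 0.06 with the cap. However, the cluster named macrophage held only 147 cells of both libraries, where the gates held 664 and 665. Clusters of 730, 1339 and 532 cells were named monocytes and macrophages together, and those named monocyte held 1381 and 572. The cluster values thus came from other sets of cells, and the order of monocytes and macrophages in this gap depended on the cells taken.

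Il6, the cytokine of acute inflammation and of fever, was rare and uneven, and single cells decided its level in several types. Over all cells it had 715 and 535 UMIs, in 291 (4.63%) and 228 (3.94%) of the cells, and the 10 cells with the most UMIs held 31.7% and 32.0% of them. The highest cell in each library was a mast cell or basophil. Those gates held only 7 and 11 cells, and with 81 and 67 Il6 UMIs they reached 2300 and 999 CPM. In the Irg1+/+ library 1 cell held 80 of these 81 UMIs, while in the other library 5 of the 11 cells held 35, 19, 9, 3 and 1 UMIs. Mast cells store and make many cytokines, yet this type was too small to be ranked.

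Among ranked types eosinophils (282 CPM) led Il6 in the Irg1+/+ library and neutrophils (55.6 CPM) in the other, from only 32 and 28 UMIs. With types taken from clusters neutrophils led in both libraries (719 and 140 CPM), and without the 10 highest cells of each library eosinophils did (91.0 and 43.4 CPM). A single cell held 22 of the 32 UMIs in eosinophils. Likewise 1 neutrophil held 24 of 26 UMIs in the Irg1+/+ library and 1 held 21 of 28 in the other. More UMIs lay behind the levels of hypoxic Vegfa macrophages (34.0 and 35.5 CPM), mature DCs (33.9 and 40.2 CPM) and monocytes (30.2 and 26.5 CPM), but these too were uneven. In hypoxic Vegfa macrophages of the library labelled Irg1-/- 19 cells had an Il6 UMI and 10 of them held 63 of the 72 UMIs, and in Irg1+/+ monocytes 10 cells held 60 of the 92. In mature DCs no cell held more than 7. In mature DCs 13.8% and 13.2% of the cells had an Il6 UMI, compared with 1.17% and 0.995% of T, NK and B cells, where the level was 2.02 and 1.99 CPM. The log2 ratio was 0.07 (-0.35 to 0.47) in hypoxic Vegfa macrophages, 0.24 (-0.19 to 0.68) in mature DCs and -0.19 (-0.60 to 0.23) in monocytes, and each interval included 0. The value in hypoxic Vegfa macrophages was -1.17 with clusters and -0.74 as a mean over cells, outside its counting interval.

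Il12b transcripts were concentrated in mature DCs, and were more abundant there in the library labelled Irg1-/-. Mature DCs held 1486 Il12b UMIs (573 CPM, interval 544 to 603) in the Irg1+/+ library and 2369 UMIs (1024 CPM, interval 983 to 1066) in the other, which was 82.3% and 88.8% of all Il12b UMIs. The log2 ratio was 0.84 (0.74 to 0.93). Conventional type 1 DCs, which take up dead tumor cells and prime CD8 T cells, came next with 50.9 and 67.3 CPM (0.40, 0.06 to 0.75). Their share of cells with a UMI went the other way (15.9% and 11.5%), 10 cells held 113 of the 128 UMIs in the library labelled Irg1-/-, and the mean over cells was 54.5 and 54.3 CPM, so no difference is read from that ratio. T, NK and B cells had 1.64 and 2.49 CPM.

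Both the share of mature DCs with Il12b and the number of transcripts per positive cell were higher in the library labelled Irg1-/-. Of 420 mature DCs 140 (33.3%, Clopper-Pearson interval 28.8 to 38.1) had a UMI in the Irg1+/+ library, and of 357 mature DCs 158 (44.3%, 39.0 to 49.6) had one in the other. At 2000 UMIs per cell the shares were 25.4% and 35.8%, with 74 and 47 shallower cells left out. T, NK and B cells with an Il12b UMI made up 0.995% and 1.33%. The median UMI count of the positive mature DCs was 3 and 6. More than 10 UMIs were found in 36 cells (8.57%) and 55 cells (15.4%), and these few cells held 1197 of the 1486 and 2003 of the 2369 UMIs.

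**Figure D2:**
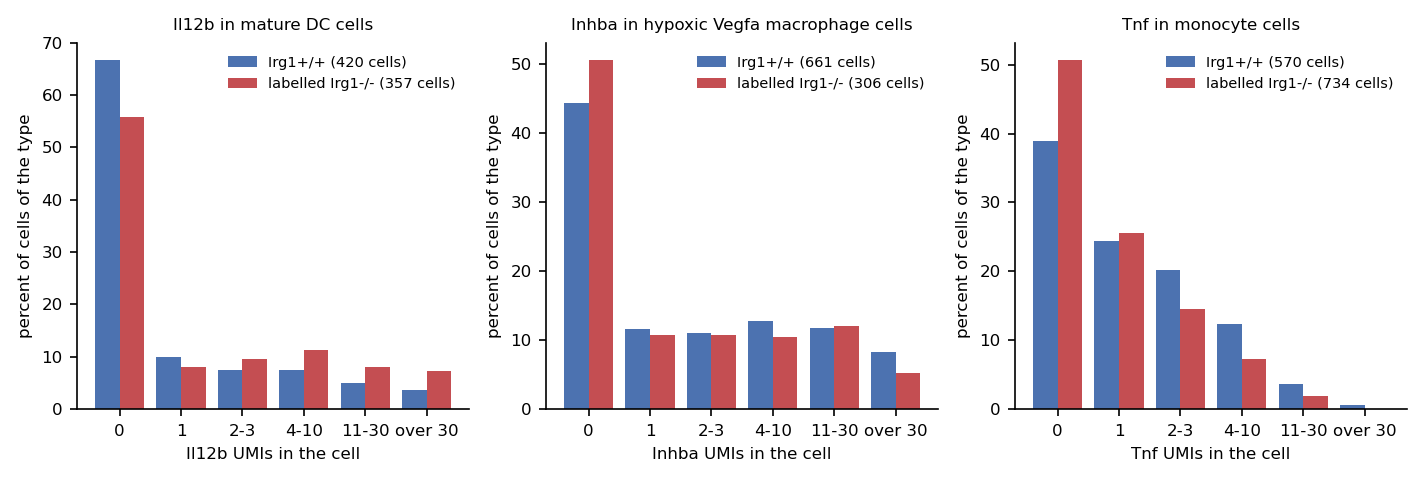
Percent of cells by number of UMIs of the gene per cell, for Il12b in mature DCs, Inhba in hypoxic Vegfa macrophages and Tnf in monocytes, each library in its own color. Cells with over 10 Il12b UMIs were 8.57% of mature DCs in the Irg1+/+ library and 15.4% in the library labelled Irg1-/-, whereas monocytes without a Tnf UMI were 38.9% and 50.7%.

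The Il12b difference in mature DCs had the same sign under every alternative tried, with log2 ratios of 0.48 to 1.11, and was 1.11 without the 10 highest cells of each library. With at most 3 UMIs counted per cell it was 0.48. In hypoxic Vegfa macrophages Il12b had 40 and 33 UMIs (7.95 and 16.3 CPM, log2 ratio 1.04, 0.32 to 1.74), but 1 cell held 27 of the 40 and 1 cell held 28 of the 33. Without the 5% of cells with the most UMIs that ratio was -1.84.

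The partner chains of Il12b were scarce. Il12a, needed for interleukin-12, had 38 UMIs (0.902 CPM) and 16 UMIs (0.453 CPM) in all, and its highest type was the plasmacytoid DC with 6 and 10 UMIs. A single cell of the Irg1+/+ library and no cell of the other had UMIs of both Il12b and Il12a, where the product of their shares gave 1.35 and 0.743 cells. Il23a, the partner in interleukin-23, had 112 UMIs in each library (2.66 and 3.17 CPM). Il12b and Il23a met in 2 and 4 cells, against products of 2.56 and 3.17. At these counts the pairing of subunits in a cell could not be resolved.

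Il23a was highest in neutrophils. They had 31 UMIs (136 CPM, interval 92.5 to 193) and 67 UMIs (133 CPM, interval 103 to 169), in 7 of 97 (7.22%) and 25 of 224 (11.2%) cells. They held 27.7% and 59.8% of all Il23a UMIs, and the log2 ratio within neutrophils was -0.05 (-0.67 to 0.63). Without the 10 cells that had the most Il23a UMIs in each whole library the neutrophil level was 31.8 and 45.4 CPM. CD8 T cells held 27 UMIs (6.45 CPM) in the Irg1+/+ library, in 7 cells of which 1 had 9, and 3 UMIs (1.02 CPM) in the other. Over all cells the log2 ratio was 0.25 (-0.14 to 0.64). It ran from 0.24 to 1.04 over the alternatives, with the highest value outside that interval.

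Il27 and Ebi3 encode the subunits of interleukin-27, which limits effector T cells and induces Il10. Both were low. Il27 had 98 and 153 UMIs (2.33 and 4.33 CPM), a log2 ratio of 0.89 (0.52 to 1.28). Nonclassical monocytes had the highest level, at 11.5 and 11.3 CPM from 11 UMIs each, but the intervals of 5.72 to 20.5 and 5.65 to 20.2 overlapped that of monocytes (6.23 and 7.47 CPM). The larger value in the library labelled Irg1-/- lay in macrophages, with 23 UMIs (2.84 CPM) and 46 UMIs (6.68 CPM), a log2 ratio of 1.22 (0.48 to 2.02), and in hypoxic Vegfa macrophages, with 10 and 12 UMIs (1.99 and 5.92 CPM). Macrophages with an Il27 UMI made up 3.01% and 6.17%, against 0.468% and 0.531% of T, NK and B cells. At 2000 UMIs per cell only 2 and 7 macrophages had one, a level near that of single UMIs.

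Ebi3 was spread more evenly, with 251 and 241 UMIs (5.96 and 6.83 CPM). Mature DCs had 15.8 and 13.4 CPM and nonclassical monocytes 12.5 and 12.3 CPM from 12 UMIs each, with overlapping intervals in both libraries. In the library labelled Irg1-/- those of Tregs (11.8 CPM) and B cells (9.02 CPM, 2 UMIs) overlapped them too, and all 5 alternatives run there put another type first, namely Tregs, nonclassical monocytes or B cells, so no leading type is named for Ebi3. Macrophages had 7.53 and 9.0 CPM, and T, NK and B cells had 3.08 and 3.48 CPM. The log2 ratio over all cells was 0.20 (-0.07 to 0.46), and within each of these types its interval also included 0. Il27 and Ebi3 were found together in 11 and 12 cells, where the product of shares gave 2.98 and 4.88. In macrophages alone they met in 6 and 7 cells against products of 1.57 and 3.14. The product takes no account of differences in depth between cells, and no pairing is read from these counts.

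Il15, the survival cytokine of NK and memory CD8 T cells, was higher in neutrophils and monocytes of the library labelled Irg1-/-. It had 967 UMIs (23.0 CPM) and 1191 UMIs (33.7 CPM) over all cells, a log2 ratio of 0.55 (0.43 to 0.68). Neutrophils had the highest level in both libraries, with 31 UMIs (136 CPM, interval 92.5 to 193) and 141 UMIs (280 CPM, interval 236 to 330), a log2 ratio of 1.02 (0.47 to 1.65). With types taken from clusters these levels were 238 and 329 CPM and the ratio was 0.46, short of 1.5-fold, and at 2000 UMIs per cell 24.2% and 27.8% of neutrophils had a UMI. Mature DCs followed with 74.0 and 77.8 CPM and did not differ beyond counting error (0.07, -0.23 to 0.37).

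Monocytes had 103 Il15 UMIs (33.8 CPM, interval 27.6 to 40.9) in the Irg1+/+ library and 239 UMIs (57.6 CPM, interval 50.6 to 65.4) in the other, a log2 ratio of 0.77 (0.43 to 1.12). Monocytes with a UMI made up 13.9% and 21.3%, compared with 3.98% and 5.64% of T, NK and B cells. At 2000 UMIs per cell these were 6.62% and 9.22% against 1.14% and 2.59%. The level in T, NK and B cells also differed, at 7.41 and 11.8 CPM (0.67, 0.22 to 1.13), and its part in the monocyte ratio was not tested. Macrophages (22.5 and 28.8 CPM, 0.36, 0.06 to 0.66) and conventional type 2 DCs (11.9 and 22.3 CPM, 0.88, 0.14 to 1.74) had the same sign. So did NK cells (13 and 46 UMIs, 8.92 and 18.5 CPM, 1.01, 0.14 to 2.06). All T cells had 7.10 and 9.19 CPM, with overlapping intervals (5.44 to 9.10 and 6.80 to 12.1). The level was not higher in conventional type 1 DCs (14.3 and 14.2 CPM). Nor was it, from few UMIs, in eosinophils (2 and 2), B cells (2 and 0) and T cells without a subtype (7 and 4). Il15ra, which holds the cytokine at the cell surface, was highest in mature DCs (212 and 220 CPM), and Il2rb, the signalling chain of the responding cell, in NK cells (2844 and 2531 CPM).

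**Figure D3:**
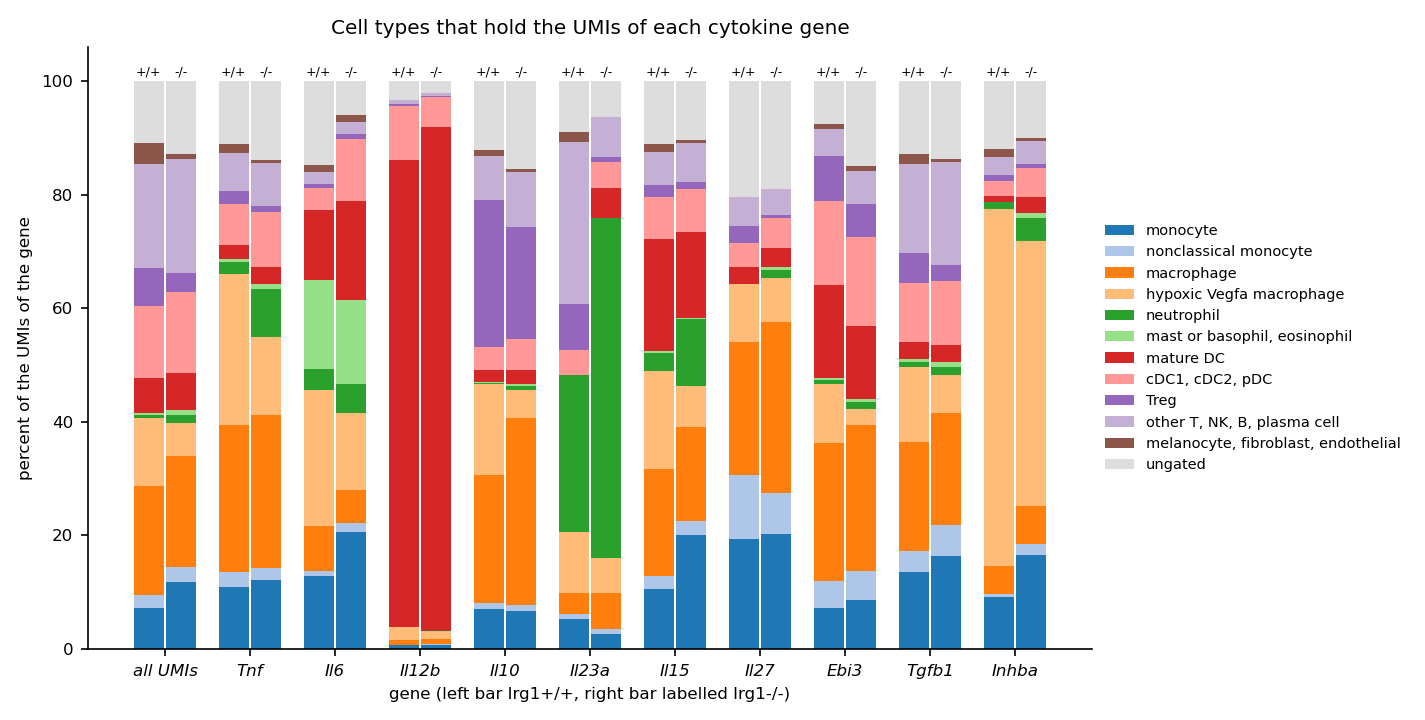
Stacked bars show the percent of each gene's UMIs that came from each gated type, with 1 bar per library and gene, so each bar adds to the whole. Mature DCs held 82.3% and 88.8% of Il12b, hypoxic Vegfa macrophages 62.8% and 46.6% of Inhba, and neutrophils 27.7% and 59.8% of Il23a.

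Il10, the main anti-inflammatory cytokine of the group, had its highest CPM in Tregs, while monocytes and macrophages together held more of its UMIs (46.7% and 45.6%) than Tregs (25.7% and 19.8%). Tregs had 316 UMIs (113 CPM) and 155 UMIs (131 CPM), a log2 ratio of 0.21 (-0.08 to 0.49), and 32.9% and 31.4% of them had a UMI. The level depended on how it was taken, with 226 and 238 CPM for Tregs from clusters and 186 and 196 CPM as a mean over cells. CD4 T cells followed with 50.2 and 69.9 CPM from 22 and 21 UMIs. They were defined by having no Foxp3 UMI and were shallow, with medians of 2635 and 2174 UMIs per cell. Whether Tregs with undetected Foxp3 were among them was not tested. Among myeloid types, macrophages had 34.3 and 37.5 CPM and did not differ beyond counting error (0.13, -0.12 to 0.38). B cells, NK cells and CD8 T cells were not used as a comparison group for this gene, since T cells make it.

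Hypoxic Vegfa macrophages and monocytes carried less Il10 in the library labelled Irg1-/-. Hypoxic Vegfa macrophages had 196 UMIs (38.9 CPM, interval 33.7 to 44.8) and 38 UMIs (18.8 CPM, interval 13.3 to 25.7), a log2 ratio of -1.04 (-1.60 to -0.55). Monocytes had 87 UMIs (28.5 CPM) and 52 UMIs (12.5 CPM), a log2 ratio of -1.18 (-1.71 to -0.67). In hypoxic Vegfa macrophages the share of cells with an Il10 UMI was 11.5% and 4.90%, whereas in monocytes it was 7.02% and 5.99%, with at most 18 and 4 UMIs in 1 cell. Types taken from clusters gave -0.02 in monocytes and -0.46 in hypoxic Vegfa macrophages, so both values rested on the gates. Over all cells Il10 was 29.2 and 22.2 CPM (-0.39, -0.53 to -0.26).

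Tgfb1, which encodes the latent suppressive cytokine TGF-β1, was found in all 16 types. Its lowest levels were 39.0 and 34.6 CPM, in mature DCs in both libraries. Its highest were 150 CPM in monocytes of the Irg1+/+ library and 148 CPM in nonclassical monocytes of the library labelled Irg1-/-. T, NK and B cells had 68.1 and 68.3 CPM. Monocytes had 458 UMIs (150 CPM) and 434 UMIs (105 CPM), a log2 ratio of -0.52 (-0.71 to -0.33), and stood first in the Irg1+/+ library only. With types taken from clusters monocytes were first in both libraries, with 143 and 107 CPM. In neutrophils the ratio was -0.85 (-1.58 to -0.10) from 30 and 37 UMIs. Hypoxic Vegfa macrophages (89.2 and 88.8 CPM) and T, NK and B cells showed ratios of 0.00 in both cases. Over all cells the ratio was -0.10 (-0.18 to -0.03), and it was 0.02 when each cell was thinned to 2000 UMIs.

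Inhba, the activin A gene, marked hypoxic Vegfa macrophages. These cells had 5208 UMIs (1034 CPM, interval 1007 to 1063) and 1886 UMIs (931 CPM, interval 889 to 974), and held 62.8% and 46.6% of all Inhba UMIs. An Inhba UMI was found in 55.5% and 49.3% of them, against 10.9% and 7.23% of T, NK and B cells, and 44.3% and 39.3% against 4.40% and 3.02% at 2000 UMIs per cell. Neutrophils (448 and 326 CPM) and monocytes (251 and 162 CPM) followed, and macrophages had 50.5 and 40.1 CPM. The first 3 of these were separated by more than their counting intervals in both libraries. A few cells carried much of the signal: 133 (20.1%) and 53 (17.3%) of the hypoxic Vegfa macrophages had over 10 UMIs and together held 4397 and 1579 of the UMIs. In the Irg1+/+ library 9 cells gated as fibroblasts also had 41 Inhba UMIs, of which 1 cell held 31. The 5 such cells of the other library had none. Types taken from clusters placed neutrophils first in both libraries, with 564 and 480 CPM, and gave 443 and 465 CPM in the hypoxic Vegfa macrophage cluster.

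Over all cells Inhba was lower in the library labelled Irg1-/-, with 8298 UMIs (197 CPM) and 4050 UMIs (115 CPM), a log2 ratio of -0.78 (-0.84 to -0.73). Within hypoxic Vegfa macrophages the ratio was only -0.15 (-0.23 to -0.08), and that gate held 10.5% of the Irg1+/+ cells and 5.28% of the others. In monocytes it was -0.63 (-0.78 to -0.48) and in neutrophils -0.46 (-0.83 to -0.09). The opposite sign was found in nonclassical monocytes (44.8 and 75.1 CPM, 0.74, 0.18 to 1.32) and in mature DCs (34.3 and 49.3 CPM, 0.52, 0.11 to 0.94). A single nonclassical monocyte held 19 of the 73 UMIs behind the higher level, and a single mature DC held 44 of the 114. The mature DC ratio was -0.46 without the 5% of cells with the most UMIs, -0.12 with at most 3 UMIs counted per cell and -0.07 as a mean over cells, and the neutrophil ratio was 0.25 with cells thinned to 2000 UMIs. Types from clusters gave 0.00 in monocytes and 0.07 in hypoxic Vegfa macrophages.

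**Figure D4:**
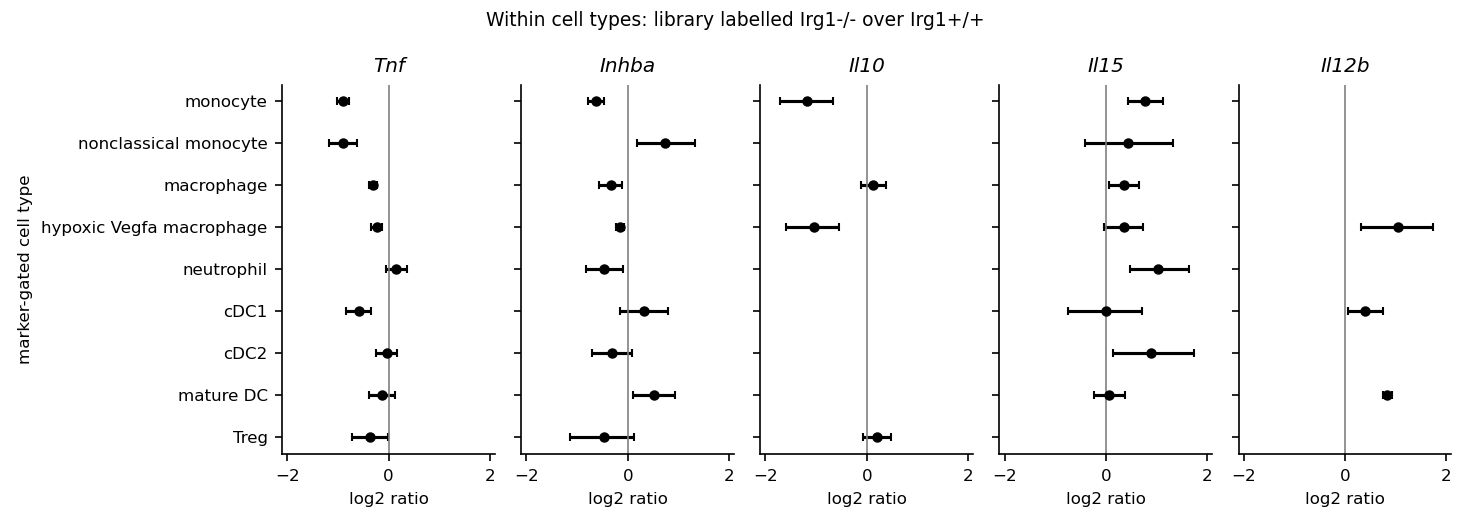
Log2 ratio of CPM, Irg1-/- over Irg1+/+, for Tnf, Inhba, Il10, Il15 and Il12b in selected types with at least 50 UMIs of the gene. Not every type past that count is drawn, and Tnf in NK cells and eosinophils, for example, is given in the text only. Points are ratios and bars 95% counting intervals. Tnf in monocytes (-0.90) lay well below 0 and in neutrophils (0.15) near it, and Inhba lay below 0 in monocytes (-0.63) and above it in nonclassical monocytes (0.74).

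The comparison of the libraries as a whole was then set against all genes. Of the 10 cytokines, Il12b and Il27 were over 1.5-fold higher and Inhba was over 1.5-fold lower in the library labelled Irg1-/-, with a median log2 ratio of 0.05. Of 12766 genes with at least 50 UMIs, 3.84% were as much higher and 7.58% as much lower, with a median of -0.08. With the cap of 3 UMIs Il12b (0.40) and Inhba (-0.52) fell short of the fold, and as a mean over cells Il27 did (0.58). Tnf (-0.35), Il10 (-0.39) and Il15 (0.55) were within 1.5-fold over all cells, although their intervals excluded 0. Tnf and Il10 stayed so under the alternatives, but Il15 ran from 0.53 to 0.73, with its highest value past 1.5-fold. The remaining values were 0.25 for Il23a, 0.20 for Ebi3, -0.10 for Tgfb1 and -0.16 for Il6. Over the alternatives Il23a reached 1.04 and Il6 reached -0.69, both past 1.5-fold, while Ebi3 and Tgfb1 stayed within it.

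Within types the counts were as follows. In monocytes 7 of the genes had at least 50 UMIs, of which Il15 was past 1.5-fold higher and Tnf, Il10 and Inhba past 1.5-fold lower (all genes 3.6% and 4.16%), and the median was -0.52 against -0.03 for all genes. In hypoxic Vegfa macrophages Il12b was higher and Il10 lower of 7 (all genes 3.32% and 5.01%). In mature DCs Il12b alone of 7 was past the fold (all genes 3.76% higher and 5.25% lower). Macrophages had Il27 higher and Il6 lower of 8, at 7.03 and 4.50 CPM for Il6 with an interval of the log2 ratio from -1.32 to 0.01 (all genes 3.42% and 6.29%). Neutrophils, with the fewest UMIs, had Il15 higher and Il6 and Tgfb1 lower of 6 (all genes 7.28% and 13.6%, with a median of -0.11). With types taken from clusters, 0 of the genes were past 1.5-fold lower in monocytes, and Il10 in hypoxic Vegfa macrophages (-0.46) and both Il15 (0.46) and Tgfb1 (-0.38) in neutrophils fell short of the fold. Il6 fell short in macrophages with the cap (-0.34), without the deepest 5% of cells (-0.23) and without the 10 highest cells (-0.39), and in neutrophils with the cap (-0.21) and as a mean over cells (-0.24). The lowest Il6 values over the alternatives went the other way, at -2.08 in macrophages and -2.36 in neutrophils. Il12b fell short with the cap in mature DCs (0.48) and in hypoxic Vegfa macrophages (0.36), and in the latter as a mean over cells (0.019). Inhba in monocytes fell short with TMM scaling (-0.58) and with a gating lead of 0.4 (-0.54). Of these calls within types, Il15 in monocytes and Il27 in macrophages were past 1.5-fold under all alternatives run. The Il27 value rested on 23 and 46 UMIs and ran from 1.04 to 3.40. With cells thinned to 1000 UMIs, 0.332% and 0.318% of macrophages had an Il27 UMI, so no difference was seen there.

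The types did not make up equal parts of the libraries, so the ratio was also computed at a fixed makeup, in which the level of each type was weighted by the mean share of that type in both libraries. Il12b was 0.78 at fixed makeup against 0.82 as sampled, and Tnf was -0.34 against -0.35. Both thus kept nearly the same value. Inhba was -0.35 at fixed makeup against -0.78, Il10 -0.16 against -0.39, Il15 0.43 against 0.55 and Il27 0.76 against 0.89. Il23a went from 0.25 to -0.28 and Il6 from -0.16 to -0.44. Small gates were weighted too, so these 2 values rest in part on a few cells. In the Irg1+/+ library 1 mast cell or basophil held 80 of the 81 Il6 UMIs of its gate, and 1 eosinophil 22 of 32. The few CD8 T cells with Il23a described above held 24.1% of the Il23a UMIs of that library. Cell numbers that differ by sorting, by loading or in the tumor itself cannot be told apart with 1 library per genotype.

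**Figure D5:**
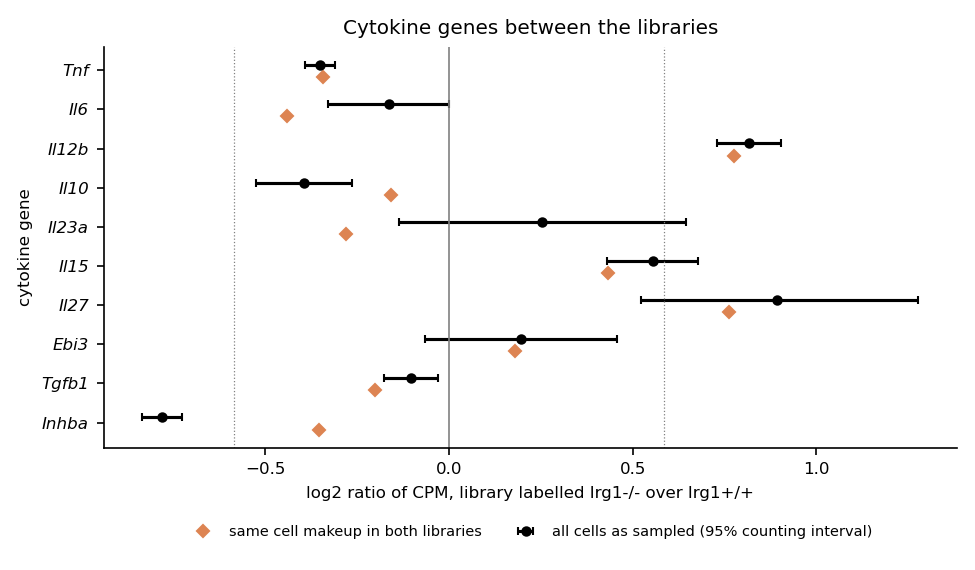
Log2 ratio of CPM over all cells, Irg1-/- over Irg1+/+, for the 10 genes, with points and bars for the ratio and its 95% counting interval, diamonds for the value at fixed makeup, and dotted lines at 1.5-fold either way. Inhba moved from -0.78 to -0.35 at fixed makeup and Il12b from 0.82 to 0.78.

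Across 32 points, which were the 16 types in each of the 2 libraries, Tnf and Inhba had the most similar profiles of log2(CPM + 1) among the 10 genes (Pearson r = 0.78), followed by Il6 and Inhba (0.69), Tnf and Il15 (0.66) and Tnf and Il6 (0.64). These points share libraries and depths, so the coefficients are descriptions. Il12b, Il27 and Il10 had no such companion. Their highest coefficients with another cytokine were 0.40 for Il12b (with Ebi3), 0.39 for Il27 (with Tgfb1) and 0.17 for Il10 (with Il27). Of 10737 genes compared, those most like Tnf were Card19, Cxcl2, Clec4d, Nlrp3 and Fth1 (0.94 to 0.91), and those most like Inhba were Card19, Ptgs2, Smox, Ninj1 and Cd14 (0.90 to 0.88). Cxcl2 encodes a neutrophil-attracting chemokine, Nlrp3 an inflammasome sensor, Ptgs2 the inducible prostaglandin synthase and Cd14 the co-receptor for lipopolysaccharide. Among the genes most like Il12b were Plppr4, Gyg, Tspan33 and Bcl2l14 (0.90 to 0.85). Il23a was most like Il1f9, Stfa2l1, S100a8, Cxcr2 and Asprv1 (0.88 to 0.78), of which S100a8 and Cxcr2 were neutrophil gate genes.

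Genes of the same pathways were then read from lists grouped by function. Of 20 receptor genes, 19 had at least 50 UMIs, and their median log2 ratio was 0.10. Il6ra, the interleukin-6 binding chain, was higher (121 and 195 CPM, 0.69, 0.64 to 0.74) and Il27ra, the interleukin-27 receptor of T cells, lower (19.2 and 12.7 CPM, -0.60, -0.77 to -0.43). Il6ra was highest in monocytes and nonclassical monocytes. Its ratio differed by type, at 0.16 (0.05 to 0.28) in monocytes from 358 and 400 CPM, 0.64 (0.53 to 0.75) in macrophages from 140 and 218 CPM, 0.51 in mature DCs and -0.12 (-0.55 to 0.33) in neutrophils. The receptors with the most UMIs were Il2rb, Il2rg and Tnfrsf1b, with ratios of 0.01, 0.10 and -0.06. By place, Tnfrsf1b was highest in neutrophils (611 and 584 CPM), Il10ra in nonclassical monocytes (284 and 279 CPM), Il12rb2 in NK cells (77.5 and 73.9 CPM) and Il23r in mature DCs (13.5 and 15.6 CPM).

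Partner subunits and relatives were mostly too rare to compare: 5 of 12 had at least 50 UMIs, Il12a was past 1.5-fold lower (-0.97, -1.94 to -0.12), and the most abundant were Ltb, the membrane partner of lymphotoxin (51.4 and 35.4 CPM, -0.54), Tgfb3 (-0.53) and Lta (-0.36). Of 17 genes for cytokine processing, TGF-β latency and activin inhibition, 12 could be compared, with a median of -0.12. Lrrc32 (973 and 389 UMIs, -1.07, -1.24 to -0.90), which holds latent TGF-β on Tregs, and Itgb8 (11.7 and 5.27 CPM, -1.15, -1.41 to -0.91), which releases it, were lower, and none was higher past 1.5-fold. Both were highest in Tregs (149 and 123 CPM for Lrrc32), a gate with 340 and 140 cells. Thbs1, Nrros and Skil had the most UMIs of the list, with ratios of -0.14, 0.24 and 0.15. Fst, the follistatin that binds activin, had at most 10 UMIs in any ranked type.

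Of 20 signalling and feedback genes, all counted, Socs1 (52.7 and 92.8 CPM, 0.82, 0.74 to 0.89) and Bcl3 (69.0 and 107 CPM, 0.63, 0.56 to 0.70) were past 1.5-fold higher and none lower, with a median of 0.27. Those with the most UMIs were Tgfbi, a TGF-β-induced matrix gene (796 and 986 CPM, 0.31), Nfkbia (-0.14) and Stat3 (0.08). Socs1, an inhibitor of JAK-STAT signalling, was 53.1 and 124 CPM in monocytes (1.23, 0.97 to 1.49). In the same monocytes Nfkbia, an NF-κB inhibitor, was 970 and 581 CPM (-0.74, -0.82 to -0.66). These were the only 2 of the 20 genes past 1.5-fold in monocytes, where the list had a median of 0.03, and other NF-κB targets lay on both sides of 0, with Nfkbiz at -0.44, Tnfaip3 at -0.16, Birc3 at -0.11, Icam1 at 0.13, Bcl3 at 0.20 and Nfkbid at 0.25. Of 17 transcription factor and messenger RNA decay genes Irf1, an interferon-induced factor, was past 1.5-fold higher (528 and 799 CPM, 0.60, 0.57 to 0.62) and none lower, with a median of 0.12. Zfp36, which destabilizes Tnf messenger RNA, was 1492 and 1729 CPM (0.21, 0.20 to 0.23), and Irf8 was at 0.26.

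Signs of handling and of other cells moved with the libraries. The 16 dissociation stress genes, led by Fos (0.47), Dusp1 (0.44) and Jund (0.25), summed to 8131 and 10468 CPM, with a median log2 ratio of 0.34 and 1 gene, Btg2, past 1.5-fold higher. In monocytes their sum was 8487 and 11400 CPM and in neutrophils 16956 and 24465 CPM, where the cytokine ratios above were taken. In neutrophils 8 of the 15 stress genes with at least 50 UMIs were past 1.5-fold higher and 3 lower, the lower ones being the heat shock genes Hspa1b (-2.12), Dnajb1 (-1.07) and Hspa1a (-1.02). All 6 melanoma genes, led by Dct (-2.25), Tyrp1 (-2.57) and Pmel (-1.96), were past 1.5-fold lower, with sums of 823 and 172 CPM over all cells and of 179 and 67.8 CPM in monocytes and macrophages. Immunoglobulin genes, led by Igkc (0.81), Igha (2.01) and Ighm (0.14), summed to 985 and 1521 CPM, and hemoglobin genes to 0.0712 and 0.198 CPM. Jchain (1.14) and Iglc2 (1.33) were also past 1.5-fold higher, and the heavy chain genes Ighg2b (126 and 2.24 CPM, -5.81) and Ighg2c (-5.22) were lower. Without the cells gated as melanocytes the Inhba ratio was -0.82 and the Il27 ratio 0.85. The part of stress and free RNA in the cytokine ratios was not tested.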

How the data were processed

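Libraries of CD45+ cells from B16-F10 tumors were analysed, 1 per genotype, each a pool of 3 mice. The authors deposited whole-number counts of UMIs per gene and cell; their methods name fastp, UMI-tools and STAR with Ensembl gene models, and the submitters' notes name CASAVA 1.8, UMI-tools and Seurat. Cells were required to have more than 200 genes and less than 10% of their UMIs from mitochondrial genes, which were not counted afterwards. Cells were gated on the mean of standardized log levels of marker genes (score at least 0.5, lead of at least 0.2, at least 2 markers detected, 3 for rare classes); monocyte and macrophage classes formed 1 group, within which the best score named the cell, and T cells were split by Foxp3, Cd4 and Cd8 UMIs. The gating rule was set after the data had been seen, and the 10 genes and all lists were chosen with earlier results of these data known. The stress and transcription factor lists share Atf3, and all 6 melanoma genes were also gate markers. So were Nr4a1 of the stress list (nonclassical monocyte gate), Irf8 and Relb of the transcription factor list, and Jchain of the immunoglobulin list. No doublet caller was applied, and leaving out the 5% of cells with the most UMIs was an alternative.

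Levels are the summed UMIs of a type in a library, scaled to CPM, with Poisson intervals (exact), shares of cells with Clopper-Pearson intervals, and log2 ratios with 0.5 UMIs added and exact conditional intervals. PCR and sampling of mice add error that these do not cover. A count of 0 allows 3 UMIs, or 0.0712 and 0.0850 CPM over all cells. A gene entered the counts past 1.5-fold if both libraries together had 50 UMIs of it, and ratios resting on fewer are given beside their UMIs. Thinning used 2000 UMIs per cell. Named genes were all 10 cytokines, the 3 listed genes with the most UMIs and at most 4 each way past 1.5-fold in each list, and the 5 genes of most similar profile, of which 1 is not reported here. Python 3.11.15, scanpy 1.11.5, scipy 1.17.1 and edgeR 4.0.16 (TMM scaling only) were used. The interval code was tested on simulated counts. Alternatives were other filters, scalings, thinning, a cap per cell, clusters for gates, and, chosen after seeing the data, a wider gating lead and leaving out the highest cells, melanocyte-gated cells or shared barcodes. A cluster took the name of the type that most of its gated cells had. Where only the monocyte and macrophage classes together made up most, it was named monocytes and macrophages, and other clusters stayed unnamed.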

Additional observations from a re-analysis of the deposited data

Results flagged for a closer look

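Effects of opposite sign between cell types drew attention to Il6 and Inhba, and none of these differences between types was tested. For Il6 the log2 ratio, with Irg1+/+ as the denominator, was -1.04 in neutrophils and -2.66 in eosinophils, but 0.91 in conventional type 2 DCs (16 and 49 UMIs). Single cells held 24 of 26 and 21 of 28 Il6 UMIs of neutrophils and 22 of 32 and 6 of 12 of eosinophils, and in type 2 DCs of the library labelled Irg1-/- 1 cell held 12 and 10 cells held 38 of the 49 UMIs.

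For Inhba the log2 ratio was below 0 in monocytes (-0.63), macrophages (-0.33), hypoxic Vegfa macrophages (-0.15), neutrophils (-0.46), plasmacytoid DCs (-1.43), CD8 T cells (-0.90) and T cells without a subtype (-1.59). It was above 0 in nonclassical monocytes (0.74), mature DCs (0.52) and eosinophils (1.45). The mature DC value lay between -0.46 and 0.86 over the alternatives and the neutrophil value between -0.87 and 0.25, and each changed sign under at least 1 of them. So did the monocyte value, from -0.98 to 0.0030, and the hypoxic Vegfa macrophage value, from -0.47 to 0.073. The macrophage value kept its sign but ran from -1.74 to -0.17. Plasmacytoid DCs (21 and 8 UMIs) and eosinophils (5 and 36 UMIs) held few Inhba transcripts, and CD8 T cells had 28.7 and 15.2 CPM, where all T, NK and B cells had 33.1 and 24.2 CPM. In the Irg1+/+ library 1 CD8 T cell held 34 of the 120 UMIs and 1 T cell without a subtype held 19 of 69.

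Among the 124 and 102 cells left out for high mitochondrial content, Il15 had 3 UMIs (17.6 CPM) in the Irg1+/+ library and 9 UMIs (71.5 CPM) in the library labelled Irg1-/-.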

How the results depend on the processing

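Of 578 recomputed log2 ratios, 512 stayed within the counting interval of the reported value, 53 moved outside it, and 13 of ratios whose interval excluded 0 changed sign. Over all cells the ranges were 0.40 to 0.96 for Il12b, -0.88 to -0.52 for Inhba, 0.53 to 0.73 for Il15 and -0.38 to -0.11 for Tnf. Sign changes came with thinning (Tgfb1 over all cells 0.023, Inhba in neutrophils 0.25), with a cap of 3 UMIs (Tnf in macrophages 0.065, Inhba 0.0026 in hypoxic Vegfa macrophages and -0.12 in mature DCs), with clusters for gates (Inhba 0.0030 in monocytes and 0.073 in hypoxic Vegfa macrophages, Il12b -0.63 in the latter) and without the 5% of cells with the most UMIs (Il12b -1.84 in hypoxic Vegfa macrophages, Inhba -0.46 in mature DCs). Averaging the CPM of single cells gave -0.072 for Inhba in mature DCs and 0.036 for Tnf in Tregs, and leaving out the 10 highest cells of each whole library gave 0.43 for Il6 in neutrophils. The cause was not tested.

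The number of the 10 genes past 1.5-fold also moved. Thinning gave 4 higher and 2 lower over all cells (all genes 4.92% and 9.01%), 2 higher in mature DCs (8.25%) and 2 higher in hypoxic Vegfa macrophages (10.0%). The cap gave 1 higher and 0 lower over all cells (3.45% and 6.68%) and 0 higher in mature DCs (3.07%) and in hypoxic Vegfa macrophages (2.92%). A gating lead of 0.4 gave 2 higher in monocytes (3.62%) and 2 in mature DCs (4.08%), and leaving out the 10 highest cells gave 2 higher in monocytes (3.41%) and 1 lower in mature DCs (5.87%). In hypoxic Vegfa macrophages 0 were higher without the deepest 5% (3.58%) and with clusters (3.15%), and 2 were lower under each of these (5.73% and 4.34%) and with the mean per cell (9.88%). Clusters gave 0 lower in monocytes (2.84%), and 6 of 10 genes kept their highest type in the library labelled Irg1-/-. TMM factors raised log2 ratios by 0.07 over all cells and by 0.20 in neutrophils. No paired analysis was possible because each genotype had 1 library, and for that reason no library could be left out.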

Other observations

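Profiles of the remaining cytokines had other neighbors among the 10737 genes compared over 32 points. Il10 was most like Arhgef12 (0.79), Angptl2, Maf, Gbp6 and Izumo1r, of which Maf encodes a transcription factor known to drive Il10. Il6 was most like Olr1 and Slc7a11 (0.87 each), Aqp9, Hgf and Pygl. Il15 was most like Cdc42ep2 (0.81), Zfand3, Slc3a2, Gm36043 and Gadd45g. Il27 was most like Nupr1 (0.77), Plcb1, Eif2ak2, Rnf213 and Dpep2, of which Eif2ak2 and Rnf213 are interferon-induced. Ebi3 was most like Etv6 (0.74), Sowahc, Rap2a, Batf3 and Tspan17, and Tgfb1 was most like Klf10 (0.76), Lgals8, Heatr1, H3f3b and Cmklr1, of which Klf10 is itself induced by TGF-β. These are coefficients over types and libraries that share depth, without a test.

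Acod1 in macrophages was 78.0 CPM (632 UMIs) in the Irg1+/+ library and 134 CPM (923 UMIs) in the library labelled Irg1-/-, whereas in monocytes it was 155 and 126 CPM.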
